A study of Homo sapiens with 12 samples.

Results

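The genes for the proteins of the mitochondrial ribosome were followed through an RNA sequencing study of K562 cells, a human erythroleukaemia line. Members were taken by symbol: MRPL or MRPS, a number and at most 1 further letter. This gave 78 of the 28278 genes in the table, 49 of them MRPL (large subunit) and 29 MRPS (small subunit), and 77 had enough counts to be tested among 15805 genes. The cells were either WT or HRG1-KO, which lack HRG1, a heme transporter encoded by SLC48A1, and each genotype was left untreated or received sodium butyrate, an inhibitor of histone deacetylases that drives K562 cells towards the erythroid lineage. The first dose of butyrate, 0.75 mM, came 24 h after plating and a second one 48 h later, and cells were taken 6 h after the second; the series places them at day 8 of differentiation. The 4 groups were untreated WT, butyrate-treated WT, untreated KO and butyrate-treated KO, each of 3 libraries numbered 1 to 3. How the knockout was made, whether it is 1 clone and whether the 3 libraries of a group came from separate cultures are not stated, so p-values measure the spread between these libraries, which may be technical. The comparisons ask what butyrate did to these genes in each genotype, how KO differed from WT, and whether the butyrate response differed between the genotypes.

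Mitochondria carry a ribosome of their own, which makes the few respiratory chain proteins that the mitochondrial genome encodes. Its ribosomal RNAs come from that genome, but every protein of it is encoded in the nucleus, made in the cytosol and imported. Some of these proteins descend from those of the bacterial ribosome, and others exist only in mitochondria. In erythroid cells, mitochondria also house the first and last steps of heme synthesis, and they are lost as red cells mature.

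Many members share short letters around their start sites, which are shown for 6 members that the results below return to. RefSeq windows of 300 bases (build GRCh38.p14, 250 before the start and 50 after) were at hand for 70 of the 78 members and were searched on both strands for 4 motifs. The letters CCGGAAG, of the type bound by ETS factors such as GABPA, stood in 30 members (42.9%), against 12.2% of all 27305 genes with a window and 20.5% of tested genes. A gene counted once if any of its windows held the letters, and 15.7% of members and 19% of all genes had more than 1 window. The letters AAGATGGC, of the type bound by YY1, stood in 21 members (30%), against 3.52% of all genes and 5.97% of tested genes. Its matches lay at 22 distinct sites, 16 of them past a start site. The 10-letter NRF1 type stood in 9 members (12.9%), against 12.2% among tested genes, and the E-box CACGTG stood in 10 (14.3%), against 12%. No 2 matches of different motifs overlapped, and 51 members held at least 1 of the 4. A match describes these letters only and is not evidence of binding. The stretches below run 5′ to 3′ from 100 bases before the start, and capitals mark a motif. All 6 members shown hold a motif. The same stretch of MRPL44, also described below, holds none of the 4 and is not shown. MRPS30 (chr5:44808847-44808967 on the plus strand) has AAGATGGC just past its start, and MRPS9 (chr2:105037969-105038068 on the plus strand) and MRPL17 (chr11:6683341-6683440 on the minus strand) have the NRF1 type. MRPS31 (chr13:40771191-40771290 on the minus strand) has CCGGAAG. MRPS10 (chr6:42217845-42217961 on the minus strand) and MRPS18A (chr6:43687775-43687891 on the minus strand), which lie in the same stretch of chromosome 6, have both CCGGAAG and AAGATGGC, as had 8 members in all.
MRPS30: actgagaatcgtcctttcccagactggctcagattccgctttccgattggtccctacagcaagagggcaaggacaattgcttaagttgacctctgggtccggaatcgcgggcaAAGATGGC
MRPS9: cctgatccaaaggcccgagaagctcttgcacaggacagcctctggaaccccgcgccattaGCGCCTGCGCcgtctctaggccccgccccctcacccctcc
MRPL17: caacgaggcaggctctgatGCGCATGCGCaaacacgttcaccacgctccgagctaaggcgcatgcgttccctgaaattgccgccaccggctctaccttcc
MRPS31: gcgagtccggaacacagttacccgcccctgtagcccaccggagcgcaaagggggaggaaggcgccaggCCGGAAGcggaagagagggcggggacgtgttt
MRPS10: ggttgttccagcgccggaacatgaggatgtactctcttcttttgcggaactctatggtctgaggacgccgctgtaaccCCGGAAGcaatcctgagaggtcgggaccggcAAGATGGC
MRPS18A: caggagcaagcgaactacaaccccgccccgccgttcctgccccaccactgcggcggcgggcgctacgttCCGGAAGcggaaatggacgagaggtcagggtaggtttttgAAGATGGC

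Library totals ran from 19963594 to 30348538 counts. SLC48A1 was at 58.9 to 83.8 CPM (counts scaled to a common library size by TMM) in the WT libraries and at 2.94 to 10.1 CPM in the KO libraries, so every library matched its genotype label. All 9 markers of erythroid cells and K562 were detected. Of 12 markers of other blood cells, MS4A1 and PF4 were at 0 counts and 4 in all, these included, stayed at or under 1 CPM in every library. The summed level of the 12 in WT was 133 to 159 CPM without and 153 to 324 CPM with butyrate. In KO it was 12.3 to 33.1 CPM without and 82.4 to 105 CPM with it. ITGA2B (up to 208 CPM) and PTPRC (up to 92.7 CPM) carried most of it in WT. In KO, PTPRC was at most 0.666 CPM. The highest means there were those of ITGA2B (11.9 CPM untreated and 56.7 CPM treated) and LYZ (5.12 and 23.9 CPM). These markers therefore moved with both genotype and butyrate, and their part in the results below was not tested.

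The members were expressed in all 4 groups, but over a wide range. Per kilobase of exon (GENCODE v29), the highest mean level over the 12 libraries was that of MRPS18B at 387 CPM per kb, followed by MRPL12 at 119, MRPS34 at 103 and MRPL45 at 102 CPM per kb. MRPL12 forms the flexible stalk of the large subunit that recruits translation factors, and MRPL45 lies near the exit of the peptide tunnel. MRPS18B overlaps PPP1R10 on the opposite strand, and use of strand in the counting is not given in the sources used here, so its level is uncertain. The 3 genes of human mitochondria related to bacterial S18 differed strongly in level per length. MRPS18A, whose protein sits in the large subunit in spite of its symbol, was at 14.6 CPM per kb, and MRPS18C was lowest of all tested members at 0.641 CPM per kb. MRPS18C overlaps ABRAXAS1 on the opposite strand and is uncertain for the same reason. MRPS24 was the member that was not tested: it had 0 counts in every library, which allows at most 0.0989 to 0.15 CPM (3 counts, counting error only). The readthrough gene URGCP-MRPS24, whose annotation overlaps it, was also at 0, while URGCP was at 9.02 to 28.4 CPM. How overlapping genes were counted is not given in the sources used here, so the 0 says only that no reads were assigned to MRPS24. In GENCODE, 49 of the 78 members overlap another annotated gene, 23 on the same and 38 on the opposite strand. Many members described below are among the 49, for example MRPL2, MRPL9, MRPL11, MRPL12, MRPL13, MRPL14, MRPL32, MRPL33, MRPL37, MRPS9, MRPS16 and MRPS25. These examples are not a full list. Reads from such pairs could have been assigned to either gene.

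Summed over the members, the level was 6928, 5543 and 5170 CPM in libraries 1, 2 and 3 of untreated WT and 6019, 4384 and 3965 CPM in treated WT. In untreated KO it was 7884, 6090 and 6291 CPM, and in treated KO 6097, 4576 and 5081 CPM. Every treated library was below the untreated library of the same number and genotype, although the groups overlapped in both genotypes because library 1 was highest in each. The WT group means were 5880 ± 926.3 CPM untreated and 4789 ± 1085 CPM treated, and the KO means were 6755 ± 982.9 CPM and 5251 ± 774.7 CPM (SD, n = 3). Without MRPS18B, the summed MRPL level was 1.87 to 2.07 times the summed MRPS level in all 12 libraries.

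**Figure D1:**
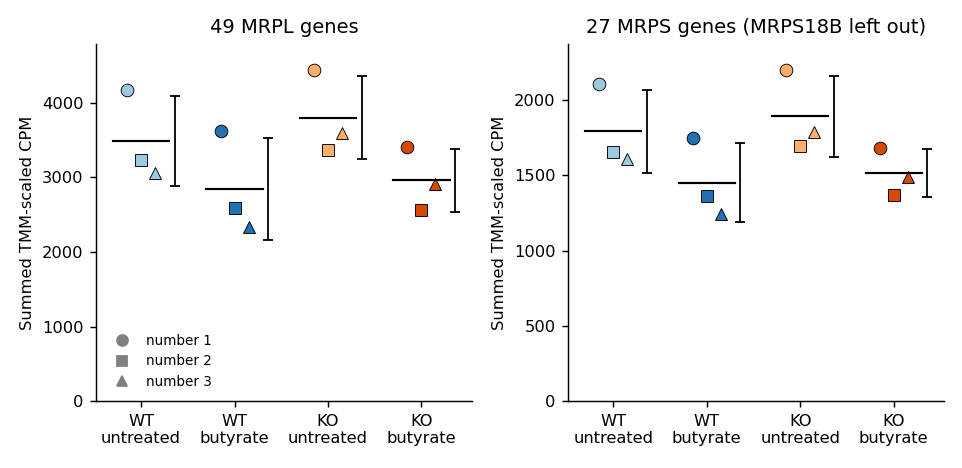
Summed TMM-scaled CPM of the 49 MRPL genes (left) and of the MRPS genes without MRPS18B (right) in each library; symbols mark the library number, horizontal bars the group means and vertical bars 1 SD (n = 3). Library 1 (circles) is highest in each group, and each treated library lies below the untreated one of the same number and genotype.

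Libraries numbered 1 stood apart for these genes. The median deviation of the 77 members from their group mean was 0.24, 0.34, 0.23 and 0.18 on the log2 scale in library 1 of the WT (untreated, treated) and KO (untreated, treated) groups, with 72, 66, 70 and 59 members above the mean. The same median over all tested genes lay between -0.06 and 0.00 in those libraries. RNA28SN5, a 28S ribosomal RNA gene, also took its largest share in library 1 of each group, at 4.69%, 5.63%, 3.36% and 2.3% of counts in the same order, against 0.673% to 2.86% in the other libraries. The part of this difference in the results was not tested, but the counts below were also computed without the libraries numbered 1. Libraries with the same number deviated together in every comparison, so a fit with the replicate number as a block is given beside the main fit where it changes a count. Numbers 2 and 3 also deviated together in some comparisons, so their pairing is less clear than that of number 1.

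Butyrate left most members lower in WT cells, by amounts that seldom passed the test for a single gene. The log2 fold change was below 0 for 64 of 77 members (83.1%), against 47.5% of all tested genes, and its median was -0.33, against 0.02 over all genes, with a range from -0.86 to 0.33. The median was -0.55 without replicate 1 of treated WT, and -0.20 without replicate 3 of treated WT or without replicate 1 of untreated WT. No member passed an adjusted p of 0.05 in edgeR's quasi-likelihood test (Benjamini-Hochberg over all tested genes), where 2.35% of all genes did, and 16 members had an unadjusted p under 0.05, as had 18% of all genes. DESeq2 called 5 members, all lower, against 2.53% of all genes. With the replicate block, edgeR called 12 members (15.6%), all lower, where the same fit called 3.14% of all genes lower. Without the libraries numbered 1 it called 11, all lower, against 4.5%. The treated libraries lay below all untreated ones for 17 members, against 10.4% of all genes, and above them for 1, against 11.3%. Within pairs of the same number, 47 members were lower in all 3 pairs, against 22% of all genes. In these bulk samples, fewer cells of a type and less RNA per cell cannot be told apart.

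Butyrate left most members lower in KO cells as well. Of 77 members, 67 were below 0, against 49.3% of all genes, and the median log2 fold change was -0.37, against 0.00, with a range from -0.92 to 0.59. Only MRPS30 passed the adjusted threshold in the main fit, where 3.4% of all genes did; 14 members had an unadjusted p under 0.05, against 19.8% of all genes, and DESeq2 called 5, all lower, against 2.4%. With the replicate block, 11 members fell (14.3%, against 3.92% of all genes) and 1 rose, against 7.8%. Without the libraries numbered 1 edgeR called 10 members, all lower, against 4.48%. The treated libraries lay below all untreated ones for 26 members, against 11.8% of all genes, and above them for 1, against 12.6%. All 3 pairs were lower for 56 members, against 27% of all genes. The median over members in pairs 1, 2 and 3 was -0.20, -0.36 and -0.41 in WT and -0.39, -0.33 and -0.28 in KO, so no single pair set the direction.

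**Figure D2:**
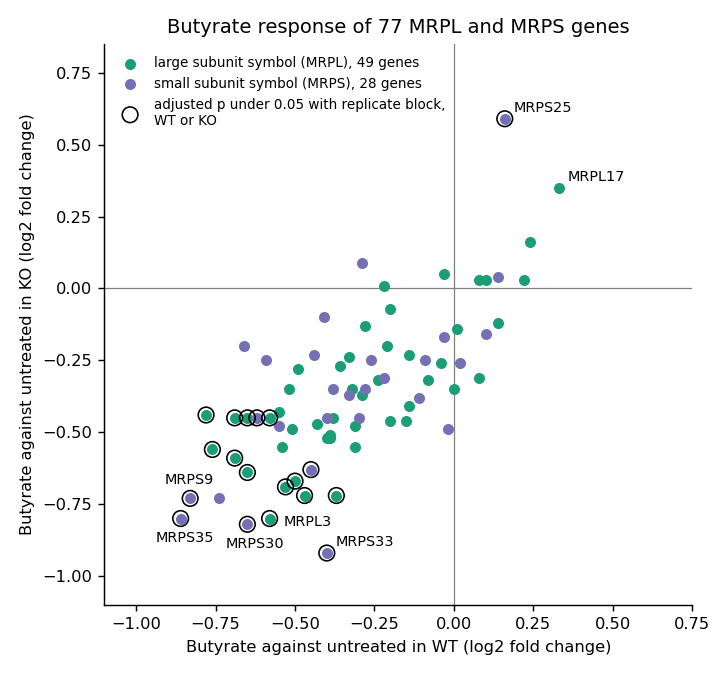
Log2 fold change of each tested member under butyrate in WT (x axis) and in KO (y axis), coloured by subunit symbol; open rings mark members past an adjusted p of 0.05 in edgeR with the replicate block in either genotype. Of the 77 points, 61 lie below 0 on both axes, with MRPS25 and MRPL17 at the upper right.

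The 2 butyrate comparisons use different libraries, and the responses in both were correlated across members. Across the 77 members, responses in the 2 genotypes correlated at 0.714 (Pearson) and 0.682 (Spearman), against 0.606 and 0.619 across all tested genes; genes are not independent replicates, and these are descriptions. Of the members, 61 were lower in both genotypes, 7 were higher in both and 9 had opposite signs. With the replicate block, 5 members fell in both genotypes: MRPL11, MRPL13, MRPS9, MRPS30 and MRPS35. They are 5 of the 12 that fell in WT and 5 of the 11 that fell in KO. Over all tested genes, 222 (1.4%) fell in both with the block, 44.7% of those that fell in WT and 35.8% of those that fell in KO.

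MRPS30, whose protein belongs to the large subunit and is specific to mitochondria, was at 87.8, 67.1 and 73.6 CPM in untreated WT and at 57.2, 46.3 and 42.1 CPM in treated WT. In KO it was at 76.4, 81.5 and 90.3 CPM untreated and at 45.6, 44.8 and 50.7 CPM treated. All treated libraries were below all untreated ones in each genotype. The log2 fold change in KO was -0.82 (SE 0.18, adjusted p = 0.0299 by edgeR with Benjamini-Hochberg), to 56.8% of the untreated level. In WT it was -0.65 (SE 0.18), with an edgeR adjusted p of 0.0792, and 0.0332 with the replicate block. The KO call was not stable: leaving out 1 library ended it in 5 of 6 fits (log2 fold changes from -0.87 to -0.74, edgeR adjusted p up to 0.131). It held only without replicate 1 of treated KO.

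MRPS9, the counterpart of bacterial S9 in the head of the small subunit, was at 33.4, 32 and 23.7 CPM in untreated WT and at 19, 13.8 and 17.4 CPM in treated WT. It had the smallest p of all members in that comparison, with a log2 fold change of -0.83 (SE 0.22, adjusted p = 0.0766 by edgeR; 0.0259 with the replicate block). In KO it was at 43.9, 42.6 and 39.1 CPM untreated and at 29.6, 19.7 and 26.3 CPM treated, without overlap between the groups. The log2 fold change there was -0.73 (SE 0.22), with an edgeR adjusted p of 0.0927, and 0.032 with the block.

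MRPS35, a small subunit protein found only in mitochondria, was at 130, 130 and 109 CPM in untreated WT against 86.9, 56.7 and 59.9 CPM in treated WT. In KO it was at 119, 91.8 and 98.2 CPM against 74.8, 42.5 and 60.9 CPM. Neither pair of groups overlapped. Its log2 fold changes, -0.86 in WT and -0.80 in KO, passed in edgeR with the replicate block (adjusted p = 0.011 and 0.0135) and not without it (0.0796 and 0.086).

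MRPL11, at the base of the stalk, and MRPL13, another protein of bacterial descent, completed the members that fell in both genotypes with the block. For MRPL11 the log2 fold change was -0.65 in WT and -0.64 in KO, and for MRPL13 it was -0.53 and -0.69. The groups overlapped for MRPL11, where library 1 of treated WT (66.8 CPM) was above library 3 of untreated WT (61.9 CPM), and did not for MRPL13. The others that fell with the block were MRPL9, MRPL15, MRPL16, MRPL19, MRPL34, MRPL39 and MRPS27 in WT and MRPL3, MRPL45, MRPL48, MRPL54, MRPS15 and MRPS33 in KO. That a member passed in 1 genotype only does not show a difference between them; the interaction test below addresses that.

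MRPS25, a mitochondria-specific protein of the small subunit, went the other way in KO. It was at 112, 94.5 and 99.1 CPM in untreated KO and at 169, 158 and 132 CPM in treated KO, with no overlap. The log2 fold change was 0.59 (SE 0.21), with an edgeR adjusted p of 0.139, and 0.0308 with the replicate block. In WT it was at 166, 135 and 109 CPM against 172, 168 and 117 CPM, which overlap, and the log2 fold change was 0.16 (SE 0.21). Of the other members above 0, MRPL17 had the highest values, at 0.33 (SE 0.22) in WT and 0.35 (SE 0.22) in KO, neither of which passed with or without the block.

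**Figure D3:**
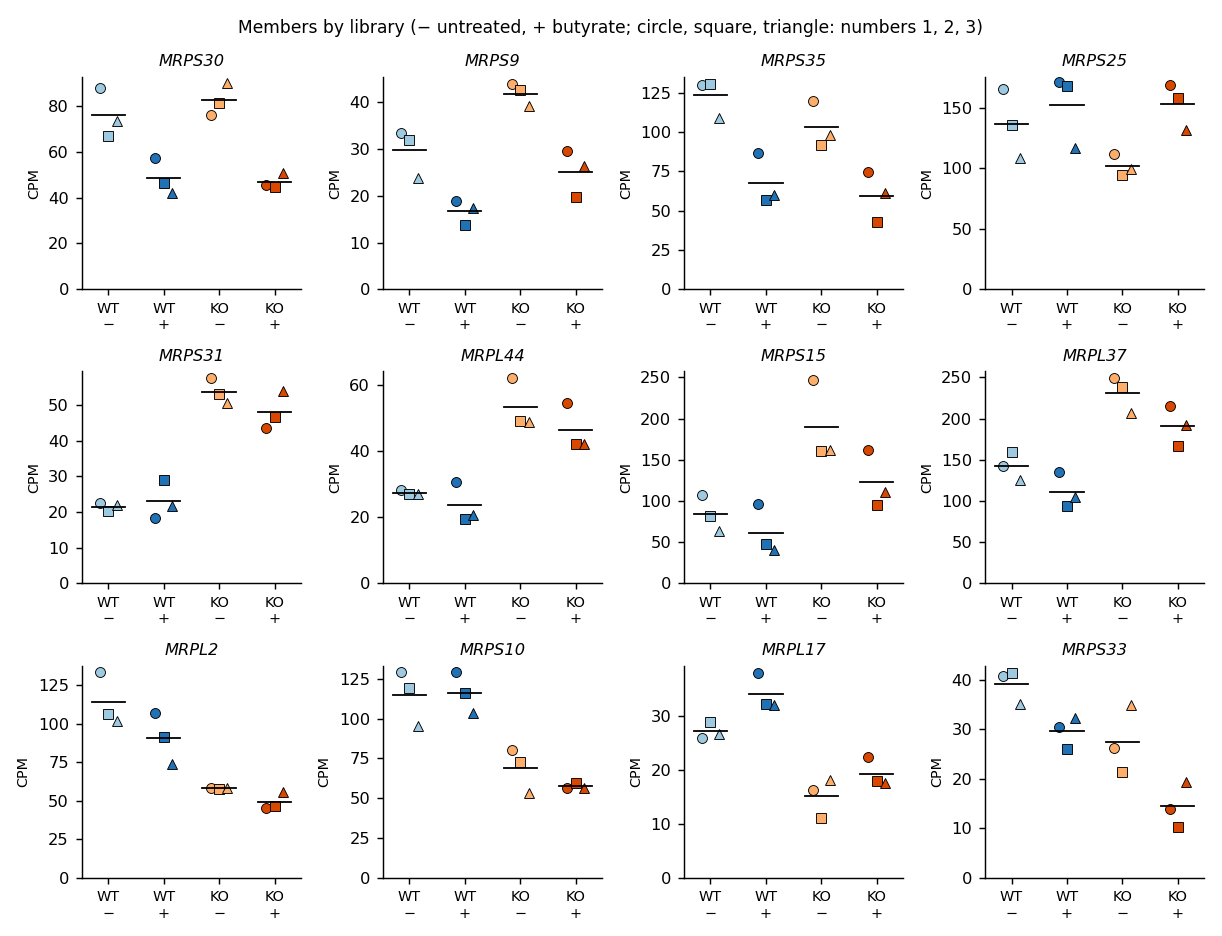
TMM-scaled CPM of 12 members in each library (minus, untreated; plus, butyrate); circles, squares and triangles are libraries 1, 2 and 3 and bars are group means. The top row shows members named for butyrate, the middle row members higher in KO and the bottom row members lower in KO.

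The 4 classes of subunit protein had medians close to each other under butyrate. The median log2 fold change in WT was -0.33 for the 30 large subunit proteins of bacterial type, -0.33 for the 21 specific to mitochondria, -0.29 for the 15 tested small subunit proteins of bacterial type and -0.35 for the 10 specific to mitochondria. In KO the medians were -0.39, -0.41, -0.26 and -0.40 in the same order, and all 21 mitochondria-specific large subunit members were below 0. MRPS36, which RefSeq names KGD4 and which is a component of alpha-ketoglutarate dehydrogenase rather than of the ribosome, was kept in none of the classes; its log2 fold changes of -0.38 in WT and -0.35 in KO lay near the members' medians and did not pass. By promoter letters, members with CCGGAAG had a median of -0.25 in WT against -0.44 for those without it, and -0.35 against -0.44 in KO. For AAGATGGC the medians were -0.30 with and -0.37 without it in WT, and -0.45 and -0.35 in KO.

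**Figure D4:**
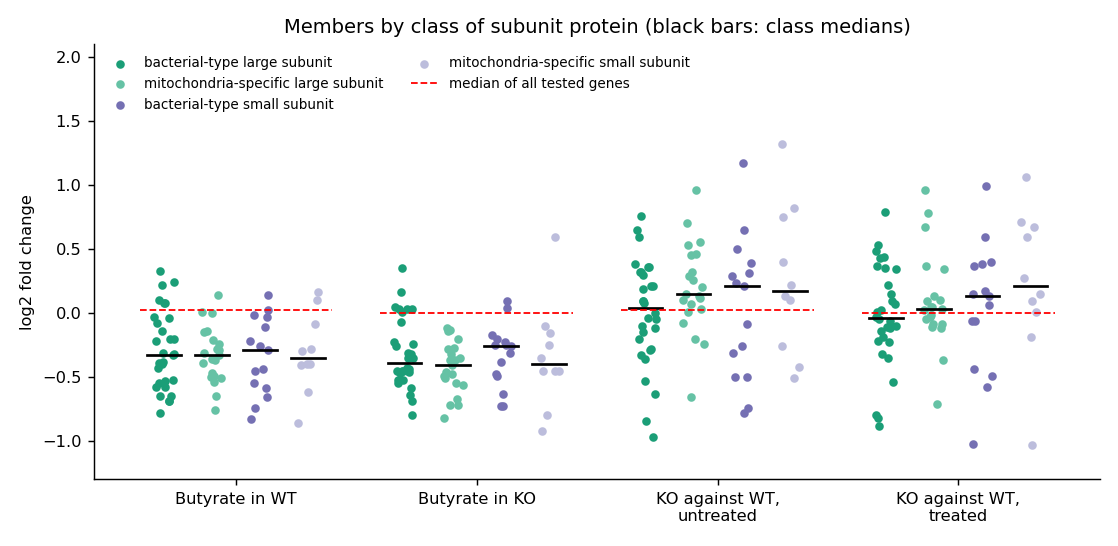
Log2 fold change (y axis) of each tested member in 4 comparisons, by class of subunit protein; black bars are class medians and the red dashed line is the median of all tested genes. Class medians run from -0.26 to -0.41 under butyrate and from -0.04 to 0.21 for KO against WT.

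None of the 7 members described next, chosen for special roles or copies, passed under butyrate in the main fit. MRPL12 was at 176, 106 and 113 CPM in untreated WT and at 168, 79.9 and 51.3 CPM in treated WT, which overlap (log2 fold change -0.40, SE 0.36). In KO it was at 183, 126 and 149 CPM untreated and at 121, 96.7 and 101 CPM treated, without overlap (log2 fold change -0.52, SE 0.36). MRPL58, a peptidyl-tRNA hydrolase that rescues stalled ribosomes, had log2 fold changes of -0.31 in WT and -0.48 in KO (SE 0.24 each), neither past the threshold. MRPL41 stood at -0.49 and -0.28 (SE 0.28 each), and MRPS12, which helps form the decoding site, at -0.29 and 0.09 (SE 0.31 each). MRPL33 stood at -0.32 and -0.35 (SE 0.25 each), and MRPL23, next to the peptide exit, at -0.43 and -0.47 (SE 0.26 each). MRPS27, a protein with pentatricopeptide repeats, did not overlap between groups in either genotype. In WT its log2 fold change of -0.62 (SE 0.17) passed in edgeR with the block (adjusted p = 0.0313) and not without it (0.0896).

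No difference between KO and WT in a member's butyrate response was called by the interaction test. The interaction, the log2 fold change in KO minus that in WT, had a median of -0.07 over members, against -0.02 over all genes, and ran from -0.53 for MRPS33 to 0.46 for MRPS6. EdgeR called 0 members, as it did 0% of all genes, and 0 members had an unadjusted p under 0.05, against 4.16% of all genes. DESeq2 and the replicate block also called 0 members, where they called 0.512% and 0.019% of all genes. Because so few genes passed anywhere, the lack of called members does not show that the responses were equal. MRPS6, whose p was the smallest, was at 37, 28.3 and 32.9 CPM in untreated WT and at 18.4, 21.6 and 22.1 CPM in treated WT, but at 35.1, 26.2 and 30.9 CPM in untreated KO and at 24.1, 29.8 and 26.6 CPM in treated KO. The groups were apart in WT and overlapped in KO, and the interaction of 0.46 (SE 0.28) had an edgeR adjusted p of 1.0.

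In untreated cells, KO against WT split the members instead of shifting them together. The median log2 fold change was 0.12, against 0.02 over all genes, and single members ran from -0.97 to 1.32. EdgeR's test called 6 members higher and 4 lower, 10 of 77 (13%), where 22.6% of all genes passed (11.7% higher, 10.9% lower), so the share was below that of all genes. With the replicate block it called 11 higher and 8 lower, where 33% of all genes passed; DESeq2 called 6 and 7, where 28.5% passed, and without the libraries numbered 1 edgeR called 8 and 4, where 26.2% passed. Groups did not overlap for 13 members that were higher and 9 that were lower, against 22.2% and 20.2% of all genes.

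The rises were led by MRPS31, a mitochondria-specific protein of the small subunit. It was at 22.5, 20.2 and 22 CPM in untreated WT and at 57.5, 53.2 and 50.6 CPM in untreated KO, and at 18.3, 29.1 and 21.7 CPM against 43.6, 46.7 and 53.9 CPM with butyrate. KO libraries were above all WT libraries under both conditions. In KO the gene was higher by 1.32 on the log2 scale (SE 0.20, adjusted p = 0.000528 by edgeR) untreated and 1.06 (SE 0.20, adjusted p = 0.00278) treated, and both held in all 6 fits that left out 1 library.

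MRPL44, a large subunit protein with a ribonuclease III-like fold, was at 28.2, 27 and 27.2 CPM in untreated WT and at 62.1, 49.1 and 48.9 CPM in untreated KO. With butyrate it was at 30.8, 19.6 and 20.9 CPM against 54.5, 42.3 and 42.2 CPM, again without overlap. Its log2 fold change was 0.96 in both conditions (SE 0.22; edgeR adjusted p = 0.00668 untreated and 0.00788 treated), and it too held in all 6 fits of each.

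MRPS15, a small subunit protein of bacterial type, was at 108, 81.6 and 64.2 CPM in untreated WT and at 247, 161 and 162 CPM in untreated KO, which did not overlap. It rose by a log2 fold change of 1.17 (SE 0.34, adjusted p = 0.0267 by edgeR). With butyrate the groups overlapped, since library 1 of treated WT (96.9 CPM) exceeded library 2 of treated KO (94.8 CPM), and the log2 fold change of 0.99 (SE 0.34) had an edgeR adjusted p of 0.0614, and of 0.00088 with the replicate block. MRPS18B rose by 0.82 untreated (SE 0.26, edgeR adjusted p = 0.0364) and stood at 0.67 treated (0.0886; 0.00927 with the block). MRPS23 (0.75) and MRPL37 (0.70) completed the rises in untreated cells.

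MRPL2, which lines the peptidyl transferase centre, was the largest fall. It was at 133, 106 and 102 CPM in untreated WT and at 58.4, 57.8 and 58.5 CPM in untreated KO, and at 107, 91.5 and 73.7 CPM against 45.3, 46.9 and 55.4 CPM with butyrate. Groups were apart under both conditions. The log2 values were -0.97 (SE 0.19, adjusted p = 0.00249 by edgeR) untreated and -0.88 (SE 0.19, adjusted p = 0.00535) treated, and both held in all 6 fits that left out 1 library.

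MRPS10, a small subunit protein of bacterial type, was at 130, 119 and 95.2 CPM in untreated WT and at 80.2, 72.7 and 53.3 CPM in untreated KO. With butyrate it was at 129, 116 and 104 CPM against 56.3, 59.7 and 56.3 CPM, so the groups were apart in both. These gave log2 fold changes of -0.74 (SE 0.19, edgeR adjusted p = 0.0149) untreated and -1.02 (SE 0.19, adjusted p = 0.00293) treated.

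MRPL17, of bacterial type, was at 25.9, 28.9 and 26.6 CPM in untreated WT and at 16.2, 11.1 and 18.1 CPM in untreated KO, and at 38, 32.2 and 31.9 CPM against 22.3, 17.9 and 17.6 CPM with butyrate. It fell in KO, with log2 fold changes of -0.84 (SE 0.22, edgeR adjusted p = 0.0164) untreated and -0.82 (SE 0.22, adjusted p = 0.0211) treated. MRPS2 was the other fall in untreated cells (-0.78, SE 0.25, edgeR adjusted p = 0.0381) and stood at -0.44 (SE 0.25, adjusted p = 0.25) with butyrate.

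In treated cells, 4 members rose and 5 fell in KO against WT, where edgeR called 19% of all genes (10.1% higher, 8.89% lower), and the median of 0.03 was near that of all genes, -0.00. With the replicate block, 11 rose and 8 fell, where 29.2% of all genes passed, DESeq2 called 7 in each direction, where 25.2% passed, and without the libraries numbered 1 edgeR called 10 higher and 6 lower, where 24.7% passed. MRPS33, a mitochondria-specific small subunit protein, was the largest fall: it was at 30.5, 26.1 and 32.3 CPM in treated WT and at 13.9, 10.2 and 19.4 CPM in treated KO (log2 fold change -1.03, SE 0.26, adjusted p = 0.0155 by edgeR). In untreated cells its value of -0.51 (SE 0.26) had an adjusted p of 0.188, and the interaction did not pass (above). MRPS16 (-0.58, edgeR adjusted p = 0.0439) was the fifth fall. MRPL9 (0.79, 0.0314) and MRPL37 (0.78, 0.0121) joined MRPS31 and MRPL44 among the rises. The untreated and treated comparisons use different libraries; 3 members rose in both (MRPL37, MRPL44 and MRPS31), of 6 and of 4, and 3 fell in both (MRPL2, MRPL17 and MRPS10), of 4 and of 5. Over all tested genes, 8.05% rose in both (68.6% of the untreated and 79.4% of the treated rises) and 6.97% fell in both (64.1% and 78.4%). With the block, 8 members rose in both, of 11 and of 11, and 7 fell in both, of 8 and of 8, against 12.2% and 10.6% of all tested genes.

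Several of these calls were lost when 1 library was left out. Such a fit has fewer libraries, so a lost call does not show that 1 library carried it. In untreated cells, the call of MRPS18B ended without any 1 library except replicate 3 of KO (edgeR adjusted p up to 0.145), and that of MRPS2 without any except replicate 3 of WT (up to 0.171). The call of MRPL37 ended without replicate 1 or 3 of WT or replicate 1 or 2 of KO (up to 0.0896). Those of MRPS15 and MRPS23 ended without replicate 2 or 3 of WT or replicate 1 of KO (up to 0.111 and 0.0701), that of MRPL17 without replicate 2 of either genotype (up to 0.0667) and that of MRPS10 without replicate 1 of WT or replicate 3 of KO (up to 0.0596). In treated cells, the call of MRPL9 ended without replicate 2 or 3 of WT or replicate 1 or 3 of KO (edgeR adjusted p up to 0.122), and that of MRPS16 without replicate 1 or 2 of WT or replicate 2 or 3 of KO (up to 0.117). MRPL17 lost its call without replicate 2 of WT or replicate 2 or 3 of KO (up to 0.071), MRPL37 without replicate 2 of WT (0.061) and MRPS33 without replicate 2 of KO (0.0569). No left-out library turned the direction of a called member. The members' median for KO against WT had no stable sign: it ran from -0.03 to 0.27 untreated and from -0.14 to 0.24 treated when 1 library was left out.

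The members' differences between KO and WT correlated with those of the genes around them. The share of members with matching signs was near that of other genes at similar levels. Each member's log2 fold change was set beside the median of the tested genes within 2 Mb of it that are not members (76 members with at least 5 such genes, median 44). The Pearson correlation was 0.712 in untreated and 0.704 in treated cells (Spearman 0.628 and 0.66), and the signs matched for 55 and 49 of the 76 members (72.4% and 64.5%). Within single pairs of libraries the Pearson correlation was 0.557, 0.658 and 0.686 untreated and 0.557, 0.61 and 0.741 treated. For 11286 genes within the members' range of levels, the correlation with their own neighbours was 0.235 and 0.27 (Spearman 0.443 and 0.483), and the signs matched for 65.8% and 66.6%. For the butyrate response the members' Pearson correlation was 0.281 in WT and 0.174 in KO, against 0.141 and 0.157 for the 11286 genes. These are descriptions over genes that share libraries and, where members lie close together, also share neighbours, and the difference between members and other genes was not tested.

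**Figure D5:**
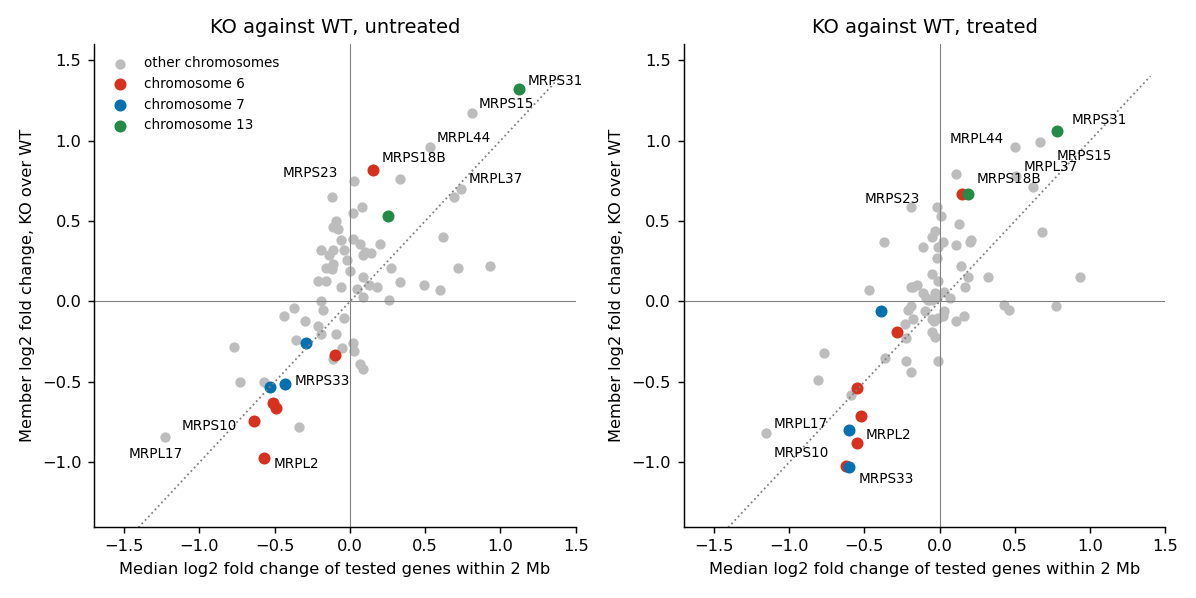
Log2 fold change of each member in KO against WT (y axis) beside the median of tested non-member genes within 2 Mb of it (x axis), untreated (left) and with butyrate (right), for 76 members; the dotted line marks equal values. MRPS31 lies at the upper right in both panels and the chromosome 6 members MRPL2 and MRPS10 at the lower left.

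On chromosome 13, MRPS31 (start 40729128, end 40771190, GRCh38.p14) stood among 17 tested neighbours whose median was 1.12 untreated and 0.78 treated. MRPL57, the other member on that chromosome, stood at 0.53 and 0.67. These passed in edgeR with the replicate block (adjusted p = 0.0303 and 0.009) and not in the main fit. All 270 other tested genes of chromosome 13 had a median of 0.93 untreated and 0.82 treated. MRPS15 on chromosome 1 had 45 neighbours with medians of 0.81 and 0.67, and MRPL37, elsewhere on the same chromosome, had 31 with 0.74 and 0.51. MRPL17 on chromosome 11 had 39 neighbours with medians of -1.23 and -1.15, further below 0 than the gene itself. All 3 members on chromosome 7 (MRPL32, MRPS17 and MRPS33) were below 0 in both conditions, as was the median of the other 754 tested genes there (-0.78 and -0.86).

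The called falls on chromosome 6 came from 1 stretch, chosen here after its values were seen. Between 42206807 and 44127452 (GRCh38.p14) lie MRPS10, MRPL2, MRPS18A and MRPL14, and their log2 fold changes in untreated cells were -0.74, -0.97, -0.66 and -0.63. The first 2 passed in the main fit. MRPS18A and MRPL14 did not pass there (edgeR adjusted p = 0.0778 and 0.069) but did with the replicate block (0.0484 and 0.0134). MRPL14 also passed in DESeq2 (adjusted p = 0.0363). The other 37 tested genes of the stretch had a median of -0.71, with 29 below 0, 11 called lower and 2 called higher, while the remaining 792 tested genes of the chromosome had a median of 0.09. With butyrate the medians were -0.64 and 0.07, with 10 of the 37 called lower and 0 higher. Under butyrate against no butyrate the stretch had medians of -0.04 in WT and 0.01 in KO. MRPL18, on chromosome 6 outside the stretch, was also below 0 in KO against WT, at -0.33 untreated and -0.19 treated. It did not pass with or without the block. MRPS18B lies elsewhere on chromosome 6, where its 127 neighbours had a median of 0.15, and was higher in KO. MRPS23 on chromosome 17 likewise rose by 0.75 in untreated cells with 33 neighbours at a median of 0.03. MRPL9 on chromosome 1 stood at 0.59 untreated and 0.79 treated, with 81 neighbours at medians of 0.08 and 0.11. In untreated cells, MRPS22 (0.22) and MRPL47 (0.21) on chromosome 3 lay below their neighbours' medians of 0.93 and 0.72. So did MRPL52 on chromosome 14 (0.07 against 0.6).

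The other parts of the mitochondrial translation system were also mostly below 0 under butyrate. Of 5 ribosome subunits with other symbols, 0 passed the main fit in any comparison. CHCHD1 was at -0.67 in WT and -0.62 in KO and fell with the block in both (edgeR adjusted p = 0.0287 and 0.0294), DAP3, the GTP-binding protein of the small subunit, stood at 0.07 and 0.01, and PTCD3 at -0.22 and -0.32. AURKAIP1 stood at -0.24 and -0.28, and GADD45GIP1 at -0.26 and -0.47. GADD45GIP1 was higher in untreated KO than in untreated WT with the block (0.55, edgeR adjusted p = 0.0254) and did not pass in the main fit. The 29 genes of ribosome assembly and RNA modification had medians of -0.27 in WT and -0.36 in KO, with 0 called in WT and 1 in KO, RPUSD4, a pseudouridine synthase (log2 fold change -1.02, SE 0.20, edgeR adjusted p = 0.0203). With the block, 4 of them fell in WT (13.8%, against 3.14% of all genes) and 3 in KO (10.3%, against 3.92%). The 16 tested translation factors and RNA partners had medians of -0.24 and -0.32 with 0 called in the main fit. With the block, the initiation factor gene MTIF2 fell in both genotypes (-0.74 and -0.72, edgeR adjusted p = 0.0248 and 0.0224) and GFM2, an elongation factor family gene, in KO (-0.63, 0.0199). DESeq2 called 1 of these 16 genes lower in WT and 3 in KO, against 2.53% and 2.4% of all genes.

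Between KO and WT, the assembly genes were called in both directions, as the ribosomal proteins were. In untreated cells 3 rose and 2 fell (17.2% of the 29, against 22.6% of all genes), and 8 rose and 4 fell with the block (41.4%, against 33%). In the main fit, RBFA (0.83), the methyltransferase gene NSUN4 (0.84) and ERAL1 (0.67), a chaperone of the small subunit RNA, were higher, and the GTPase gene GTPBP10 (-0.78) and MALSU1 (-0.80) were lower, with edgeR adjusted p from 0.0111 for RBFA to 0.0447 for ERAL1. In treated cells ERAL1 rose (0.97) and GTPBP10 (-1.24), YBEY (-1.51) and MALSU1 (-0.83) fell (13.8%, against 19% of all genes), and 2 rose and 5 fell with the block (24.1%, against 29.2%). LRPPRC, which stabilises mitochondrial messenger RNA, rose in both conditions (0.76 and 0.60, edgeR adjusted p = 0.00735 and 0.0285), and the release factor gene MTRF1L fell in treated cells (-0.68). The main fit called 6.25% of the 16 factors and partners untreated and 12.5% treated, against 22.6% and 19% of all genes. With the block, 3 of the 16 rose and 1 fell in untreated cells (25%, against 33% of all genes). In treated cells 2 rose and 1 fell with it (18.8%, against 29.2%). Of 7 genes of mitochondrial transcription, MTERF1, a termination factor, fell in both (-0.91 and -0.98). It was the only call of that list, 14.3% in each, against 22.6% and 19% of all genes. Of 8 tested regulators of nuclear genes for mitochondria, the nuclear receptor ESRRA fell in both (-0.65 and -0.55). The coactivator PPARGC1B fell in treated cells (-0.78), and with the block also in untreated cells (-0.57). In the main fit these were 12.5% of the 8 untreated and 25% treated, against 22.6% and 19% of all genes. No gene of these 2 lists passed under butyrate in the main fit, and with the block TFB2M, a mitochondrial transcription factor gene, fell in WT (-0.78) and GABPA, the gene of an ETS factor, in KO (-0.69).

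The respiratory chain and the cytosolic ribosome serve as comparison for the size of the butyrate shift. The 76 tested nuclear genes for respiratory chain subunits had medians of -0.32 in WT and -0.35 in KO, close to the members' -0.33 and -0.37. The 85 tested genes for proteins of the cytosolic ribosome had medians of -0.09 in WT and -0.32 in KO. Their interaction was below 0 for 78 of 85 (median -0.25), against 45 of 77 members (median -0.07). No gene of either group was called in the interaction, and the difference between the groups was not tested.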

How the data were processed

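Members and gene lists were chosen with earlier results of these data known. The authors deposited 1 table of counts, whole numbers for each gene symbol in 12 libraries. FastQC 0.12.1, STAR 2.7.11b and the build hg38 are named in the submitters' processing notes; the counting tool and its use of strand are not given in the sources used here. The deposited counts went unchanged into edgeR 4.0.16 (R 4.3.3): filterByExpr (minimum count 10), TMM, a mean per group over all 12 libraries, quasi-likelihood F-tests of 5 contrasts and Benjamini-Hochberg adjustment over 15805 genes with a threshold of 0.05. The biological coefficient of variation was 0.384. DESeq2 1.42.0 and other scalings, filters and sample sets were alternatives. The scripts were tested on simulated data. Same-numbered libraries deviated together (correlation of deviations from group means 0.147 to 0.595, every pair over 0.1), so the numbers were taken as pairs from the data. The labels give no source for the pairing. Differently numbered libraries ran from -0.512 to 0.343. Number 1 was below 0 with numbers 2 and 3 in every comparison. Treated WT number 2 correlated at 0.343 with treated KO number 3 and at 0.315 with treated KO number 2. The data therefore pair numbers 2 and 3 less clearly than number 1. Members named by rule were the 4 largest called rises and falls of each comparison (where the higher group had 50 or more counts in each library), the smallest p, members with special roles or copies and the untested member; others were named after their values were seen. Neighbours were placed by RefSeq (98.4% of tested genes). The table held no genes of the mitochondrial genome, which are not analysed here.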

Additional observations from a re-analysis of the deposited data

How the results depend on the processing

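The members' median kept its direction under butyrate in every setting tried, from -0.27 to -0.41 in WT and from -0.25 to -0.38 in KO with other fits, and from -0.20 to -0.55 and from -0.25 to -0.47 with 1 library left out, and no call reversed. With 1 library left out, the members' interaction median ran from -0.19 to 0.17. How many members passed depended on the fit. Under butyrate in WT the number called went from 0 to 1 with library size alone, 5 with DESeq2, 12 with the replicate block and 11 without the libraries numbered 1, and it ran from 0 to 8 when 1 library was left out, the 8 coming without replicate 1 of treated WT. In KO it went from 1 to 5 with DESeq2, 12 with the replicate block, 0 with only the groups compared and 10 without the libraries numbered 1, and it ran from 0 to 2. For KO against WT, it went from 10 to 19 with the block in untreated cells, ran from 5 to 8 with 1 library left out, and was 5 without replicate 2 of WT or replicate 1 of KO and 6 without replicate 1 of WT or replicate 2 of KO. In treated cells it went from 9 to 14 with library size alone, 14 with DESeq2, 19 with the block, 3 with only the groups compared and 16 without the libraries numbered 1, and it ran from 5 (without replicate 2 of WT) to 14 (without replicate 1 of WT). The cause of these changes was not tested. Shares over all genes are not given here for library size alone, for only the groups compared or with 1 library left out. In those fits, a change among the members cannot be told apart from a change over all genes. With windows of 1 Mb, chosen after seeing the data, the correlation with neighbours was 0.527 untreated and 0.595 treated. Library size alone moved the median of all genes to 0.12 for butyrate in KO and 0.09 for the interaction, and the members' interaction median from -0.07 to 0.07. At these depths, the count of 0 for MRPS24 allows at most 0.0989 to 0.15 CPM.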
